A study of Mus musculus with 48 samples.

Results

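Foxl2, Wnt4, Rspo1 and Fst are 4 genes that mark and drive ovarian determination in the mouse. They were chosen by symbol in the table of read counts and in the table of FPKM values, and by Ensembl identifier in the table of single cells. All 4 were found among the 22173 genes of the count table, the 13682 genes of the FPKM table and the 32285 genes of the single-cell table.

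In the developing ovary, the secreted ligand Wnt4 and the R-spondin Rspo1, which holds Wnt receptors at the cell surface, act through beta-catenin in the somatic cells of the gonad. Fst, follistatin, is a secreted protein that binds and blocks activins and lies downstream of Wnt4 and of Foxl2. Foxl2 is a forkhead transcription factor of pre-granulosa and granulosa cells, the supporting cells that surround the female germ cells, and it holds the testis program off into adult life.

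The study asked how gonadal somatic cells induce meiosis in germ cells, and whether such cells can be made from embryonic stem cells (ESCs). All samples were C57BL/6. Gonadal somatic cells of 4 stages were profiled as 2 libraries each by poly-A RNA sequencing: E12.5, E13.5 and E16.5 cells from female gonads, and somatic cells of the ovary of 6-week-old mice (P_6w). Germ cells had been removed from the gonads on a magnetic column with an antibody to SSEA1, and the unbound cells were kept. The FPKM table held 31 libraries in 13 groups. These were ESC cultures differentiated for 24 h or 48 h without compound (Con), with vitamin C (Vc), with AM580, an agonist of retinoic acid receptor alpha, or with both (V580), 2 libraries each, cultures at days 4, 6, 8 and 10 of V580 (V580_D4 to V580_D10), 3 libraries each, and 3 libraries of cells from E12.5 female gonads (E12.5_GC). Per the study's methods the ESCs were a female line. The remaining sample was 1 droplet single-cell library of V580 cells at day 6. No label said that libraries of a group came from separate animals or cultures, so p-values measure the spread between these libraries only, which may be technical.

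The stage libraries held 12694769 to 22259044 counts, and the FPKM libraries were 16440000 to 28290000 fragments deep, as estimated from the steps between their low values. The libraries labelled E12.5 carried transcripts of the Y chromosome. Their summed level of 4 Y-linked genes was 8.40 and 9.496 CPM (counts scaled to the same library total), against at most 0.254 CPM in the libraries of the other stages. Of 10 Sertoli cell genes, 9 were lower at E13.5 than in these libraries, with summed levels of 129 and 136 CPM at E12.5 and 59.95 and 62.28 CPM at E13.5. The same Sertoli list summed to 168 and 172 CPM at E16.5 and to 109 and 196 CPM at P_6w. Its sum was therefore not highest in the libraries with Y-linked transcripts, but most of its genes were lower after E12.5. Gene by gene, 1 was higher and 8 lower at E16.5 than at E12.5, and 2 were higher and 8 lower at P_6w. Of all genes, 45.9%, 37.6% and 52.9% were called at E13.5, E16.5 and P_6w against E12.5, in either direction. A set of 4 liver genes summed to 106 and 116 CPM at E13.5 against 3.15 and 3.26 CPM at E12.5. The same set summed to 3.03 and 1.59 CPM at E16.5 and to 125 and 138 CPM at P_6w. No Y-linked gene of the list is in the FPKM table, so the same check of E12.5_GC was not run here. Comparisons with E12.5 are therefore given beside those among E13.5, E16.5 and P_6w, which do not use these libraries as a group.

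In GENCODE vM21 on mm10 (GRCm38), Foxl2 (ENSMUSG00000050397.4) lies on chromosome 9 from 98955288 to 98958543 on the plus strand, as 1 exon of 3256 bases. Wnt4 (ENSMUSG00000036856.4) lies on chromosome 4 from 137277489 to 137299726, plus strand, with 4194 exonic bases. Rspo1 (ENSMUSG00000028871.7) lies on the same chromosome from 124986430 to 125009099, plus strand, with 1938 exonic bases. Fst (ENSMUSG00000021765.9) lies on chromosome 13 from 114452290 to 114458951 on the minus strand, with 4589 exonic bases. Exons of the antisense gene Foxl2os overlap those of Foxl2, and exons of the antisense gene Gm47040 overlap those of Fst. Gm12930 overlaps Rspo1 on the other strand without sharing exonic bases. The strand setting of the counting was not stated, so reads of Foxl2 and Fst cannot be told apart from those of their antisense partners in the overlap.

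The bases just before Wnt4 and Rspo1 are shown because these 2 secreted Wnt pathway genes shared their highest and lowest stage and yet reached different shares of the E12.5_GC level in the V580 cultures. They are RefSeq sequences of GRCm38.p6, plus strand, chr4:137277385-137277488 for Wnt4 and chr4:124986180-124986429 for Rspo1, each ending at the base before the first annotated base of the gene. Capitals mark matches to the GC box GGGCGG or its reverse complement CCGCCC.
Wnt4: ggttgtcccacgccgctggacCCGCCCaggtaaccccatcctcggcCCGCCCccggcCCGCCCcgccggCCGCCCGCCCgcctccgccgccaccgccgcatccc
Rspo1: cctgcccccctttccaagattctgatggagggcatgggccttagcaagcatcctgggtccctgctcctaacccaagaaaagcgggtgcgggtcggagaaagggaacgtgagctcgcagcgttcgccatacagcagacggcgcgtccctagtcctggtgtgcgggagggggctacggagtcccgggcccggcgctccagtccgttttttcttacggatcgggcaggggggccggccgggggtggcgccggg
The Wnt4 stretch was 83.7% G and C and held 5 matches, some of them overlapping, and the Rspo1 stretch was 66.8% G and C and held 0. Over promoter windows of 300 bases (250 before to 50 after the RefSeq start), Wnt4 had 8 GC box matches, Foxl2 2 and Rspo1 0, and 35.7% of all 32851 windows had at least 1. The TCF/LEF motif CTTTGA, the GATA motif AGATAA, the nuclear receptor half-site AGGTCA and the forkhead motif GTAAACA, searched on both strands, had 0 matches in the windows of these 3 genes and were held by 16%, 11.2%, 16.3% and 3.65% of all windows. By the GENCODE start, the Foxl2 window (98955357 to 98955656) lay wholly within its 1 exon, so no base before the gene was searched. Of the Wnt4 window, only 104 bases lay before the gene. A match is a description of letters and not of binding. Fst was not matched in the promoter table.

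Over the 4 stages, the secreted Wnt pathway genes and the pair of Foxl2 and Fst went opposite ways into adult life. Wnt4 and Rspo1 were highest at E13.5 and lowest in the 6-week ovary, whereas Foxl2 and Fst were highest in the 6-week ovary. All 4 genes were lower at E16.5 than at E13.5. For each gene, the 2 libraries of a stage did not overlap with those of the next stage in order of level. This held also at steps that were not called in the test below, such as Rspo1 between E12.5 and E16.5. The share of all genes without overlap was not computed, so it is a description only.

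**Figure D1:**
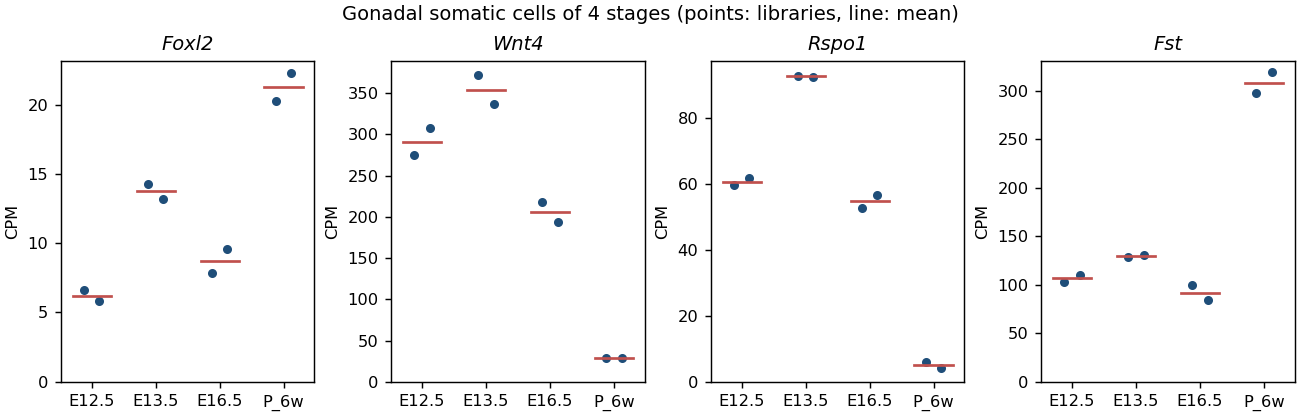
Level of each gene in gonadal somatic cells of 4 stages, in CPM (vertical axis, linear, a scale per panel), with 1 point per library and a line at the mean of 2. Wnt4 and Rspo1 peaked at E13.5 and were lowest at P_6w, and Foxl2 and Fst were highest at P_6w.

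Wnt4 stood at 307.3 and 274.9 CPM at E12.5, 371.9 and 337.1 CPM at E13.5, 217.9 and 193.3 CPM at E16.5, and 28.27 and 28.47 CPM at P_6w. The adult libraries were far below all others, and the fetal stages did not overlap. In the test across all genes (edgeR quasi-likelihood on counts, Benjamini-Hochberg adjusted over 16398 genes, called at an adjusted p below 0.05), Wnt4 fell by 0.79 on the log2 scale from E13.5 to E16.5 (SE 0.118, adjusted p = 5.59e-05) and by 2.86 from E16.5 to P_6w (SE 0.131, adjusted p = 1.01e-10). Between E12.5 and E13.5 its log2 difference of 0.28 was not called (SE 0.117, adjusted p = 0.0589), and it was 0.50 lower at E16.5 than at E12.5 (adjusted p = 0.00367), a call lost without E12.5 replicate 1 (adjusted p = 0.0675).

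Rspo1 had 61.84 and 59.59 CPM at E12.5, 92.92 and 92.51 CPM at E13.5, 52.9 and 56.61 CPM at E16.5, and 6.13 and 4.16 CPM at P_6w. The last values came from 75 and 50 counts, against 925 to 1829 counts in each fetal library. Rspo1 rose by 0.61 from E12.5 to E13.5 (SE 0.141, adjusted p = 0.00253), fell by 0.76 from E13.5 to E16.5 (adjusted p = 0.00037) and fell by 3.41 from E16.5 to P_6w (SE 0.177, adjusted p = 4.1e-10). Its first step was not called when gene length entered as an offset (log2 difference 0.0949, adjusted p = 0.621) or GC content did (0.31, adjusted p = 0.0618).

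Foxl2, the transcription factor, was the lowest of the 4 per base of exon in the fetal libraries. It had 5.79 and 6.62 CPM at E12.5, 14.28 and 13.18 CPM at E13.5, 7.88 and 9.55 CPM at E16.5, and 20.26 and 22.31 CPM at P_6w, from 125 to 281 counts in a library. Foxl2 rose by 1.15 from E12.5 to E13.5 (SE 0.199, adjusted p = 0.000306), fell by 0.66 from E13.5 to E16.5 (adjusted p = 0.0101) and rose by 1.29 from E16.5 to P_6w (SE 0.196, adjusted p = 4.95e-05). The fall to E16.5 was not called without E13.5 replicate 1 (log2 difference −0.61, adjusted p = 0.054), without E16.5 replicate 1 (−0.52, adjusted p = 0.0567) or with a GC offset (−0.42, adjusted p = 0.0673). The adult libraries and 1 E16.5 library were read on another lane than the rest, and with lane in the model the difference of P_6w from E13.5 went from 0.63 (adjusted p = 0.0103) to 0.35 (adjusted p = 0.36). That call was also lost without E13.5 replicate 2 (0.55, adjusted p = 0.0744) or P_6w replicate 2 (0.57, adjusted p = 0.073).

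Fst, the activin antagonist, had 110.0 and 103.2 CPM at E12.5, 128.2 and 131.1 CPM at E13.5, 100.1 and 83.79 CPM at E16.5, and 297.7 and 318.7 CPM at P_6w. Only the adult libraries stood well apart, and the fetal stages lay close together. Fst fell by 0.49 from E13.5 to E16.5 (SE 0.121, adjusted p = 0.00296) and rose by 1.74 from E16.5 to P_6w (SE 0.123, adjusted p = 1.35e-08). From E12.5 to E13.5 its log2 difference of 0.28 was not called (adjusted p = 0.0673), and a length offset (0.34, adjusted p = 0.0376), a GC offset (0.53, adjusted p = 0.00126) or a lane term (adjusted p = 0.0082) each brought it under the threshold.

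Against the share of all tested genes called in the same comparison, 2 of the 4 genes were called between E13.5 and E12.5 (background 45.9%), 1 between E16.5 and E12.5 (37.6%) and 4 between P_6w and E12.5 (52.9%). In the comparisons without E12.5, 4 were called between E16.5 and E13.5 (54.1%), 4 between P_6w and E13.5 (59.7%) and 4 between P_6w and E16.5 (56.1%). With backgrounds this high, the size and the direction say more than the call. P_6w differed from E13.5 by −3.64 in Wnt4, −4.17 in Rspo1, 0.63 in Foxl2 and 1.25 in Fst on the log2 scale, and from E12.5 by −3.36, −3.56, 1.78 and 1.53, so the directions were the same with and without the E12.5 libraries. These comparisons share the P_6w libraries. In bulk samples, fewer cells of a type and less RNA per cell cannot be told apart.

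Per kilobase of exon, Wnt4 made up 55.1% of the summed level of the 4 genes at E12.5 and 8.14% at P_6w. Fst went from 18.4% to 80.8%, Rspo1 from 24.9% to 3.19% and Foxl2 from 1.51% to 7.87%. At E13.5 and E16.5 the makeup was near that of E12.5, with Wnt4 at 51.3% and 49.0%.

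The cell makeup of the libraries moved with the stages. From E13.5 to E16.5, where all 4 genes were lower, 9 interstitial genes went from 1030 and 979.6 CPM to 3394 and 3086 CPM. Over the same step 5 macrophage and mast cell genes went from 28.96 and 20.88 CPM to 307.8 and 289.9 CPM, and 5 germ cell genes from 27.43 and 27.95 CPM to 102.8 and 132.9 CPM. A list of 6 adult granulosa cell genes summed to 36190 and 36270 CPM at P_6w against 133 to 257 CPM in the fetal libraries. A list of 5 erythroid genes summed to 108 and 124 CPM at P_6w, against 12670 and 13940 CPM at E12.5, 23660 and 24940 CPM at E13.5, and 3311 and 5330 CPM at E16.5. Their part in the differences of Foxl2, Wnt4, Rspo1 and Fst was not tested.

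The partners of these genes are described by lists of the pathway. Of all genes, 52.9% were called between P_6w and E12.5 and 59.7% between P_6w and E13.5, in either direction. Of 14 genes of beta-catenin signalling, 2 were higher and 11 lower at P_6w than at E12.5, with a median log2 difference of −1.93 against −0.041 over all genes. The largest called changes were in the transcription factor Lef1 (−5.93), the Wnt inhibitor Dkk1 (−5.59), the Wnt target Sp5 (−5.06) and the Wnt feedback gene Nkd1 (−3.21). Against E13.5, 3 were higher and 7 lower (median −1.23), with Sp5 at −5.46 and Lef1 at −5.35. Of 19 Wnt and R-spondin receptors, regulators and other R-spondins, 3 were higher and 7 lower at P_6w than at E12.5 (median −0.36), and 9 higher and 7 lower against E13.5. The count of this list against E12.5 was near the share of all genes. Lgr6 (2.94 against E12.5) and Lgr5 (−2.25), both R-spondin receptors, went opposite ways. Rspo3 was the other R-spondin to change (−2.85), from 51 to 101 counts at E12.5 to 1 and 11 at P_6w, and Rspo2 and Rspo4 stayed at or under 13 counts in every library.

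Of 18 genes of the activin and follistatin group, 5 were higher and 8 lower at P_6w than at E12.5 (median −0.51). In this comparison 52.9% of all genes were called. The inhibin and activin subunits Inhba (11.26), Inha (7.95) and Inhbb (4.29) rose, and Bmp7 fell by 4.03. Inhba, a subunit of the activin that follistatin binds, stood at 1.98 to 11.87 CPM in the fetal libraries and at 5233 and 5842 CPM at P_6w. Of 19 female supporting cell genes, 4 were higher and 13 lower at P_6w (median −1.46), among them aromatase Cyp19a1 (9.56), the estrogen receptor Esr2 (8.34) and the gonadal factor Lhx9 (−6.42). Of 14 male supporting cell genes, 2 were higher and 9 lower, with Dmrt1 at −10.10, Sox10 at −6.66 and Sox9 at −4.64. Against E13.5, where 59.7% of all genes were called, the male list had 4 higher and 6 lower, and Sox9 at −3.74.

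From E12.5 to E13.5, 1 of 14 male supporting cell genes was higher and 11 lower (median −1.70 against 0.025 over all genes), led by Sox10 (−5.42), the testis enzyme Hsd17b3 (−4.15), Amh (−3.90) and Dhh (−3.39). The rises of Foxl2 and Rspo1 in this comparison stood beside that change and beside the Y-linked transcripts of the E12.5 libraries, whose part in them was not tested. In the same comparison 3 of 19 female supporting cell genes were higher and 7 lower. Of 14 genes of beta-catenin signalling, 0 were higher and 7 lower, with Dkk1 at −2.72. Both counts were near the 45.9% of all genes called in this comparison in either direction.

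In the V580 cultures, Wnt4 came close to the level of E12.5_GC by day 10, and Fst did not move toward it. Foxl2 and Rspo1 lay in between. Levels of the FPKM table are given per length and can be compared between genes. The tables of stages and of FPKM values were normalized separately and no level is compared between them. The makeup of the 4 genes differed between the E12.5 libraries of the stages and E12.5_GC. Foxl2 made up 1.51% of the summed level at E12.5 and 10.4% in E12.5_GC, and Wnt4 55.1% and 45.0%. The reason was not tested, and shares of the E12.5_GC level rest on those libraries alone.

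**Figure D2:**
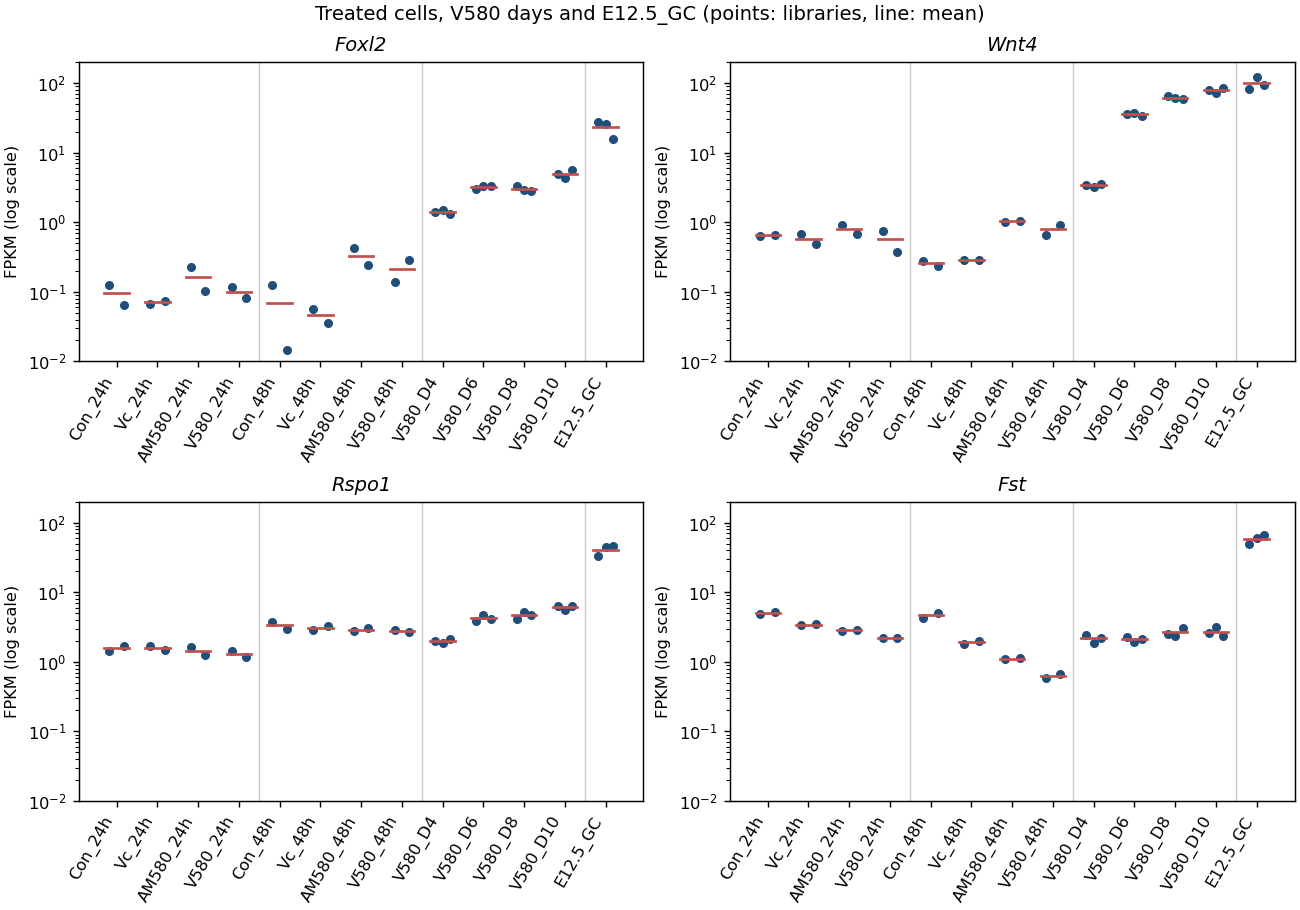
FPKM of each gene in the 13 groups (vertical axis, log scale), with 1 point per library and a line at the group mean of 2 or 3. Wnt4 climbed from 3.41 FPKM at V580_D4 to 78.2 at V580_D10, while Fst stayed between 1.84 and 3.12 FPKM over the V580 days against 50 to 65.9 in E12.5_GC.

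Wnt4 had 3.45, 3.25 and 3.54 FPKM at V580_D4, 35.7, 37.0 and 34.1 FPKM at V580_D6, 64.9, 60 and 58.9 FPKM at V580_D8, and 78.5, 72.2 and 83.7 FPKM at V580_D10. E12.5_GC had 82.7, 124 and 94.9 FPKM. Each day lay above the day before with no overlap, and the day 10 libraries overlapped with those of E12.5_GC. The means came to 3.40%, 35.4%, 61.0% and 77.8% of the E12.5_GC mean. In limma on log2(FPKM + 1), a scale that understates the change of low genes, Wnt4 rose by 3.05 from day 4 to day 6 (SE 0.110, adjusted p = 3.6e-11), by 0.77 to day 8 (adjusted p = 7.31e-05) and by 0.35 to day 10 (adjusted p = 0.0257). At day 10 it was still 0.34 lower than E12.5_GC (adjusted p = 0.0129), a call lost without V580_D10 replicate 2 (−0.29, adjusted p = 0.0572).

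Rspo1 had 2.02, 1.88 and 2.11 FPKM at V580_D4, 3.89, 4.71 and 4.06 FPKM at V580_D6, 4.13, 5.27 and 4.73 FPKM at V580_D8, and 6.35, 5.60 and 6.42 FPKM at V580_D10. E12.5_GC had 33.1, 44.0 and 45.9 FPKM, above every V580 library. Days 6 and 8 overlapped, and the other days did not. Rspo1 rose by 0.80 from day 4 to day 6 (SE 0.111, adjusted p = 4.05e-05) and by 0.32 from day 8 to day 10 (adjusted p = 0.0377), and its mean reached 14.9% of that of E12.5_GC.

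Foxl2 had 1.42, 1.5 and 1.32 FPKM at V580_D4, 3.01, 3.34 and 3.29 FPKM at V580_D6, 3.33, 2.93 and 2.83 FPKM at V580_D8, and 4.88, 4.30 and 5.65 FPKM at V580_D10. E12.5_GC had 27.6, 26.1 and 15.7 FPKM, again above every V580 library. Foxl2 rose by 0.80 from day 4 to day 6 (SE 0.153, adjusted p = 0.00062) and by 0.56 from day 8 to day 10 (adjusted p = 0.012), with no call between days 6 and 8 (−0.07, adjusted p = 0.765). Its mean at day 10 was 21.3% of that of E12.5_GC.

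Fst had 2.44, 1.84 and 2.22 FPKM at V580_D4, 2.30, 1.92 and 2.16 FPKM at V580_D6, 2.54, 2.33 and 3.08 FPKM at V580_D8, and 2.56, 3.12 and 2.38 FPKM at V580_D10. None of these values exceeded 3.12 FPKM, and E12.5_GC had 50, 59.8 and 65.9 FPKM. No step between days was called for Fst, with log2 differences of −0.01 (adjusted p = 0.934), 0.22 (adjusted p = 0.14) and 0.01 (adjusted p = 0.941). Its mean was 3.70% of that of E12.5_GC at day 4 and 4.59% at day 10, and the difference at day 10 was −4.01 (SE 0.113, adjusted p = 3.36e-13).

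Of the 4 genes, 3 were called from day 4 to day 6, 1 from day 6 to day 8 and 3 from day 8 to day 10, against 44.9%, 41.1% and 34.5% of 11512 tested genes. The calls from day 8 to day 10 were weak, and leaving out 1 library left between 0 and 3 of them. The call of Rspo1 was lost without V580_D8 replicate 1 or 3 or V580_D10 replicate 1 or 3 (adjusted p of 0.0846 to 0.147) and in the count test on fragments estimated from the FPKM, chosen after seeing the data (0.0611), that of Wnt4 without V580_D8 replicate 2 or 3 or V580_D10 replicate 1 or 3 (0.0711 to 0.102), and that of Foxl2 without V580_D10 replicate 3 (0.0586). All 4 were lower than E12.5_GC at each day, where the share of all genes called lower was 34.3% at V580_D4, 32.0% at V580_D6, 30.5% at V580_D8 and 33.2% at V580_D10. The 4 comparisons share the E12.5_GC libraries.

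The makeup of the 4 differed accordingly. Wnt4 made up 85.0% of their summed FPKM at V580_D10 and 45.0% in E12.5_GC, and Fst made up 2.92% and 26.2%. At V580_D10 the mean of Wnt4 was 29.1 times that of Fst, and in E12.5_GC 1.72 times.

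Other genes of female supporting cells were lower in the V580 cultures too. Of 16 tested, 0 were higher and 15 lower than in E12.5_GC at V580_D4 (median −2.58), 0 and 15 at V580_D6 (−1.47), 1 and 13 at V580_D8 (−1.78), and 2 and 14 at V580_D10 (−1.62), with a median over all genes of at most 0.027. The largest were in Nr5a1 (−6.28 at day 10), the gene of the steroidogenic factor of the gonad, in Lhx9 (−5.15), in Irx3 (−4.20) and in Kitl (−3.98), the ligand of the germ cell receptor Kit. Nr5a1 was under 0.083 FPKM in every V580 library from day 4 on and between 67.8 and 95.1 FPKM in E12.5_GC. Gata4, another factor of the early gonad, averaged 4.94 FPKM at V580_D4, 17.0 at V580_D6 and 46.2 at V580_D10, against 143.5 in E12.5_GC.

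Of 17 Wnt and R-spondin receptors and regulators, 9 were higher and 5 lower than in E12.5_GC at day 10, with the Wnt receptors Fzd6 (2.62) and Fzd7 (2.47) higher and the R-spondin receptor Lgr4 (−1.74) lower. Of all genes, 33.2% were called lower at day 10, and the share called higher is not given here, so these counts are a description only. Of 13 genes of beta-catenin signalling, 7 rose and 2 fell from day 4 to day 6, the interval in which Wnt4 rose most (median 0.34 against −0.0096 over all genes). The Wnt targets Ccnd1 (1.62), Lef1 (1.60), Nkd1 (1.42) and Axin2 (1.31) led this list. Of all genes, 44.9% were called from day 4 to day 6. Axin2, a direct target of beta-catenin, averaged 9.05 FPKM at V580_D4, 24 at V580_D6 and 14.4 at V580_D10, against 19.2 in E12.5_GC. From day 6 to day 8, 1 gene of the list rose and 5 fell, and from day 8 to day 10, 1 rose and 3 fell, near the 41.1% and 34.5% of all genes called in these steps.

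Of 16 activin and follistatin genes, 8 were higher and 3 lower than in E12.5_GC at day 10. Inhba was 3.42 higher and Bmp4 2.45 higher, and Inhbb was 2.94 lower and Inha 2.00 lower. Inhba averaged 12.1 FPKM and Fst 2.69 FPKM at day 10, and in E12.5_GC Inhba averaged 0.223 FPKM and Fst 58.6 FPKM. Of 7 tested male supporting cell genes, 4 were higher and 2 lower at day 10, led by Cyp26b1 (3.45), an enzyme that breaks down retinoic acid. The counts of the activin and male lists also lack the share of all genes called higher and are a description only.

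Markers of other cell types moved with the days. The sum of 8 interstitial genes went from 106 to 117 FPKM at day 4 to 1395 to 1715 FPKM at day 10, against 260 to 281 FPKM in E12.5_GC. The sum of 6 mesothelial genes went from 194 to 224 FPKM to 428 to 463 FPKM, against 133 to 147 FPKM. A list of 10 pre-granulosa genes, which leaves out the 4 genes described here, summed to between 70.8 and 127 FPKM over the V580 days and to between 824 and 940 FPKM in E12.5_GC. The E12.5_GC libraries also held 982.5 to 4108 FPKM of 2 erythroid genes, which stayed under 1 FPKM in the V580 cultures. The part of these markers in the levels of Foxl2, Wnt4, Rspo1 and Fst was not tested.

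During the first 48 h of differentiation, Fst was lower with each compound and lowest with both, Wnt4 was higher with AM580 at 48 h, Rspo1 rose with time in every group, and Foxl2 had few fragments in any library. A list of 5 pluripotency genes summed to between 899 and 1030 FPKM at 24 h, to between 277 and 582 FPKM at 48 h and to at most 22.8 FPKM at V580_D4.

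**Figure D3:**
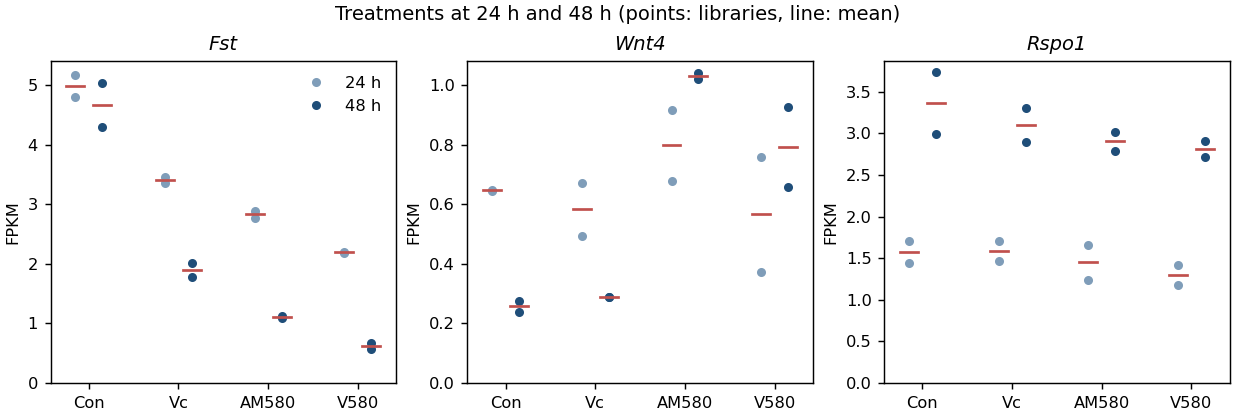
FPKM of Fst, Wnt4 and Rspo1 (vertical axes, linear) with no compound, Vc, AM580 or both (V580) at 24 h (light) and 48 h (dark), with 1 point per library and a line at the mean of 2. Fst stepped down from Con to V580 at both times, and Wnt4 at 48 h was above Con with AM580 and V580.

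Fst at 24 h had 4.80 and 5.18 FPKM in Con, 3.36 and 3.46 FPKM with Vc, 2.78 and 2.89 FPKM with AM580, and 2.19 and 2.20 FPKM with V580. At 48 h it had 4.31 and 5.04 FPKM in Con, 1.78 and 2.02 FPKM with Vc, 1.10 and 1.12 FPKM with AM580, and 0.577 and 0.668 FPKM with V580. No 2 of the 4 groups overlapped at either time, and the order from Con to V580 was the same at both. In limma on log2(FPKM + 1) over 10644 genes, Fst differed from Con at 24 h by −0.44 with Vc (adjusted p = 0.00102), −0.64 with AM580 (adjusted p = 1.75e-05) and −0.90 with V580 (adjusted p = 2.53e-07), each with an SE of 0.0712. At 48 h the differences were −0.97 (adjusted p = 1.26e-06), −1.43 (adjusted p = 4.56e-10) and −1.80 (adjusted p = 3.33e-11). By the ratio of mean FPKM, V580 stood at 0.441 of Con at 24 h and 0.133 of Con at 48 h.

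Adding Vc to AM580 lowered Fst by a further 0.38 at 48 h (adjusted p = 0.00187). At 24 h the step was −0.26 (adjusted p = 0.0237), and it was not called after leaving out any 1 library of AM580_24h or V580_24h (adjusted p of 0.0804 to 0.127). Adding AM580 to Vc lowered Fst by 0.46 at 24 h (adjusted p = 0.000342) and by 0.84 at 48 h (adjusted p = 2.2e-07). The effects were larger at 48 h than at 24 h by −0.53 for Vc (adjusted p = 0.0107), −0.78 for AM580 (adjusted p = 3.84e-05) and −0.90 for V580 (adjusted p = 1.07e-05) on the log2(FPKM + 1) scale.

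Together the compounds lowered Fst at 48 h by less than the sum of their single effects, with a departure of 0.59 (SE 0.101, adjusted p = 0.00336). This call depended on the scale. It was not called with a pseudocount of 0.1 (0.51, adjusted p = 0.0752), in 1 model of all 31 libraries (adjusted p = 0.0857) or in a count test on fragments estimated from the FPKM, an alternative chosen after seeing the data (0.48, adjusted p = 0.254). At 24 h the departure was 0.18 and not called (adjusted p = 0.999).

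Wnt4 was at or under 1.04 FPKM in every culture of 24 h or 48 h. At 24 h it had 0.643 and 0.649 FPKM in Con, 0.672 and 0.493 FPKM with Vc, 0.916 and 0.679 FPKM with AM580, and 0.758 and 0.373 FPKM with V580. At 48 h it had 0.276 and 0.238 FPKM in Con, 0.287 and 0.288 FPKM with Vc, 1.02 and 1.04 FPKM with AM580, and 0.656 and 0.927 FPKM with V580. The groups at 24 h largely overlapped, and at 48 h both groups with AM580 lay above both without it. At 48 h Wnt4 was 0.69 higher with AM580 (SE 0.107, adjusted p = 6.9e-05) and 0.51 higher with V580 (adjusted p = 0.000984) than in Con, and 0.47 higher with V580 than with Vc (adjusted p = 0.00187). V580 and AM580 differed by −0.19 (adjusted p = 0.252).

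Wnt4 entered this test only through the 2 AM580_48h libraries, the ones at 1 FPKM or more, so it had to differ there. With no filter on low values the calls held for AM580_48h (adjusted p = 0.000382), for V580_48h (adjusted p = 0.00296) and for V580_48h against Vc_48h (adjusted p = 0.00493). The effect at 48 h exceeded that at 24 h by 0.57 for AM580 (adjusted p = 0.00956, and 0.0192 with no filter) and by 0.59 for V580 (adjusted p = 0.00768, and 0.0164 with no filter). From 24 h to 48 h Wnt4 fell by 0.39 in Con (adjusted p = 0.00506) and by 0.30 with Vc (adjusted p = 0.0242), and its differences of 0.18 with AM580 (adjusted p = 0.153) and 0.20 with V580 (adjusted p = 0.111) were not called. The last was called without V580_24h replicate 1 (0.38, adjusted p = 0.00765) or V580_48h replicate 1 (0.31, adjusted p = 0.0471). The fall with Vc was not called without Vc_24h replicate 1, Vc_48h replicate 1 or Vc_48h replicate 2 (adjusted p of 0.0754 to 0.162).

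Rspo1 had 1.18 to 1.71 FPKM in the 8 libraries at 24 h and 2.71 to 3.74 FPKM in the 8 at 48 h. It rose from 24 h to 48 h by 0.76 in Con (SE 0.102, adjusted p = 1.15e-05), 0.66 with Vc (adjusted p = 4.33e-05), 0.68 with AM580 (adjusted p = 3.46e-05) and 0.73 with V580 (adjusted p = 1.57e-05). The times did not overlap in any group. No difference from Con was called for Rspo1 at either time, the largest being −0.19 with V580 at 48 h (adjusted p = 0.126), which passed under quantile normalization (−0.27, adjusted p = 0.0434) and without Con_48h replicate 2 (−0.31, adjusted p = 0.0402).

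Foxl2 did not reach 1 FPKM in any culture of 24 h or 48 h and was not in the test. Its values ran from 0.0146 FPKM in a Con library at 48 h to 0.422 FPKM in an AM580 library at 48 h, which correspond to 1 and 27 fragments. At 48 h it had 0.124 and 0.0146 FPKM in Con, 0.0569 and 0.0353 FPKM with Vc, 0.422 and 0.243 FPKM with AM580, and 0.138 and 0.286 FPKM with V580. Both groups with AM580 lay above both without it. In the count test on estimated fragments (edgeR, 12537 genes, chosen after seeing the data), Foxl2 was higher than Con at 48 h with AM580 (adjusted p = 0.0035) and with V580 (adjusted p = 0.0472), and higher with V580 than with Vc (adjusted p = 0.0216). In that test 52.8%, 52.7% and 50.0% of all genes were called in these 3 comparisons, and Foxl2 with V580 did not differ from AM580 beyond the threshold (adjusted p = 0.366).

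Of the members tested, 1 was called at 24 h with Vc (background 13.6%), with AM580 (14.8%), with V580 (29.0%), between V580 and AM580 (14.8%) and between V580 and Vc (16.9%), in each case Fst. At 48 h 1 was called with Vc (12.4%), 2 with AM580 (57.0%), 2 with V580 (57.1%), 1 between V580 and AM580 (19.2%) and 2 between V580 and Vc (53.8%). Where Wnt4 is the second gene counted, it was in the test only through the AM580_48h libraries. From 24 h to 48 h, 2 were called in Con (66.0%), 3 with Vc (67.7%), 2 with AM580 (65.7%) and 2 with V580 (66.8%). For the change of an effect between the times, 1 was called for Vc (2.90%), 2 for AM580 (35.0%) and 2 for V580 (33.9%), and for the departure from additivity 0 at 24 h (0.0376%) and 1 at 48 h (3.61%). The comparisons at a time share their Con libraries.

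With AM580 at 48 h, where 57.0% of all genes were called, 5 of 14 receptors and regulators were higher and 3 lower (median 0.046 against −0.028 over all genes), and the largest difference was in Porcn (2.27), the enzyme that attaches the lipid to Wnt proteins. Porcn averaged 0.577 FPKM in Con, 6.60 with AM580 and 2.82 with V580 at 48 h. Of 13 genes of beta-catenin signalling, 3 were higher and 4 lower, with Lef1 at −1.87 and Dkk1 at 1.21, and the counts of both lists were near the share of all genes. Of 15 activin and follistatin genes, 8 were higher and 1 lower, with the follistatin-like Fstl1 at 0.79. Of 8 female supporting cell genes, 3 were higher and 3 lower, with Gata4 at 1.86.

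Extraembryonic endoderm genes moved with AM580. A list of 8 summed to 24.24 and 24.32 FPKM with AM580 and to 12.49 and 14.6 FPKM with V580 at 48 h, against 5.51 to 6.14 FPKM in Con and 5.57 to 5.88 FPKM with Vc. Their part in the levels of Wnt4, Foxl2 and Fst was not tested.

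The single-cell library of V580 cells at day 6 held 15412 distinct barcodes, of which 15315 were kept (200 or more genes, mitochondrial counts of 40% or less), with a median of 9281 UMIs. The study's results describe this run as done in triplicate, but all barcodes carry the same suffix and no cell could be assigned to a replicate, so the spread between replicates is in none of the values below. With 1 sample there is no test between groups, and intervals are 95% exact intervals that cover counting error only. No cells were removed as doublets. Wnt4 was the most widely detected of the 4, with a UMI in 54.1% of cells (53.3% to 54.9%) and 247 CPM over all cells. Rspo1 was seen in 1997 cells, 13% (18.3 CPM), and Fst in 12.7% (12.1% to 13.2%, 56.4 CPM). Foxl2 was seen in 249 cells, 1.63% (1.43% to 1.84%), with 276 UMIs in all, or 1.69 CPM. In the bulk V580_D6 libraries the means of Foxl2, Rspo1 and Fst were 3.21, 4.22 and 2.13 FPKM. Relative to Rspo1 and Fst, Foxl2 was thus far lower in the single cells, for a reason that was not tested. Its share of cells holds for this assay only.

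Fst was concentrated in few cells. A single cell held up to 165 UMIs of Fst, and up to 46 of Wnt4, 8 of Rspo1 and 7 of Foxl2. Shares depend on depth. In the 9077 cells thinned to 5000 UMIs, leaving out 6238 shallower cells, Foxl2 was seen in 0.793%, Wnt4 in 55.6%, Rspo1 in 8.93% and Fst in 8.42%, and in the same cells before thinning in 2.52%, 74.9%, 20.1% and 16.3%.

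Clustering with the 4 genes left out gave 12 clusters. Cluster 2 (3112 cells, led by Sv2a, Upk3b and Lrrn4) was mesothelial-like and cluster 4 (1488 cells, led by Lum, Col6a2 and Inhba) interstitial-like. Clusters 8 (908 cells, led by Srgn, Glipr1 and Hs3st1) and 10 (269 cells, led by Gm15261, Col27a1 and Kit) were extraembryonic endoderm-like, and cluster 11 (66 cells, led by Sst, Ina and Tubb3) neuron-like. The other clusters stayed unnamed, among them cluster 3 (1993 cells), which was led by the proliferation genes Mki67 and Aspm and carried the mesothelial markers Upk3b, Upk1b and Lrrn4, none of them among its top 10 genes. Clusters 5 and 7 held 3 interstitial and 5 extraembryonic endoderm markers and were left unnamed because they were shallow (medians of 2021 and 2311 UMIs) with none of those markers among their top 10 genes. Cluster 10 was also shallow (median of 2364 UMIs) but had the marker Lama1 among its top 10 genes. Cluster 5 had a median of 15.8% mitochondrial counts. No cluster was named pre-granulosa-like. Cluster 8 held 3 pre-granulosa markers, Bmp2, Gata4 and Runx1, beside 7 of extraembryonic endoderm, and was named for the longer set. These names were rebuilt here and may differ from those of the study.

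**Figure D4:**
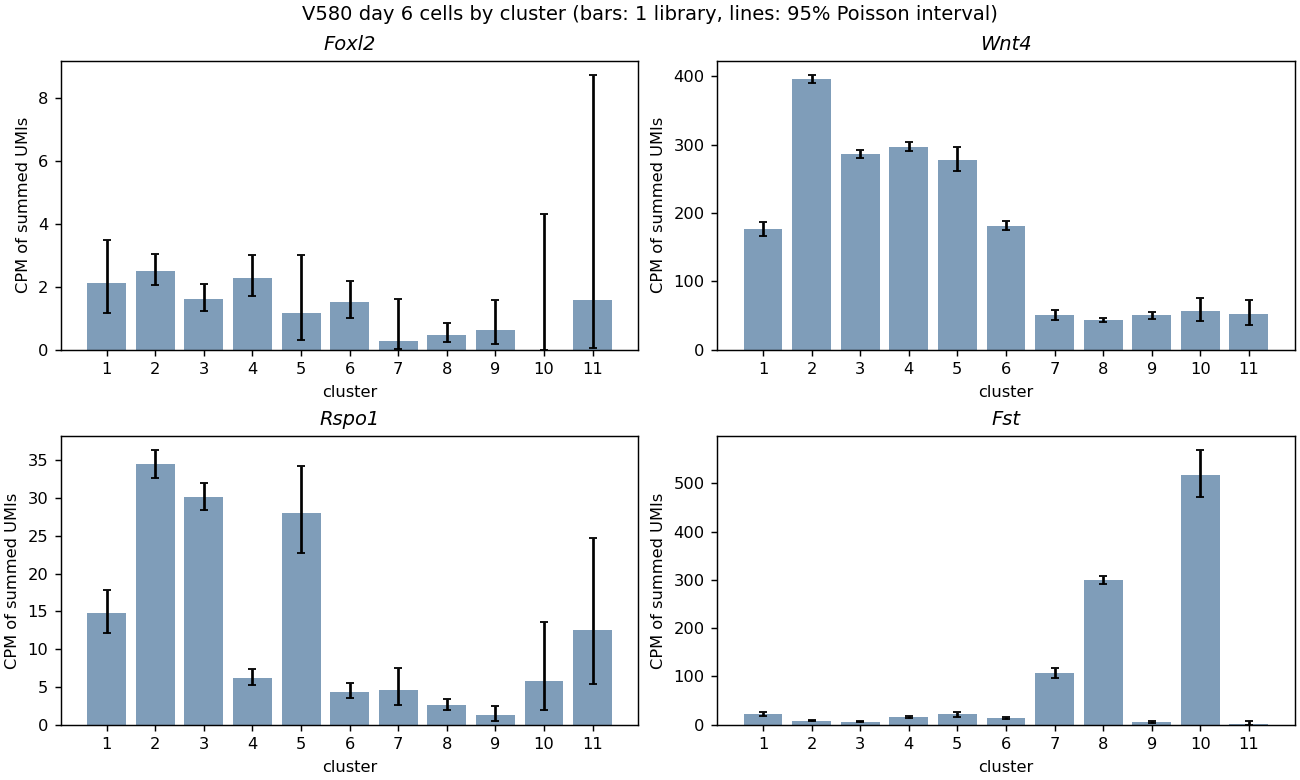
UMIs of each gene summed over a cluster, in CPM (vertical axes, linear), in clusters 1 to 11 of V580 cells at day 6, with 95% Poisson intervals that cover counting error only (cluster 12, of 25 cells, is left out). Fst stood highest in clusters 8 and 10, where Wnt4 was low, and Rspo1 highest in clusters 2, 3 and 5.

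Fst lay mainly in extraembryonic endoderm-like cells. Cluster 8 held 75.1% of all Fst UMIs in 5.93% of the cells, at 299 CPM (292 to 307) and with a UMI in 74.1% of its cells. Cluster 10 reached 518 CPM (471 to 569) and cluster 7, unnamed but with 5 extraembryonic endoderm markers, reached 107 CPM (96.4 to 118). The mesothelial-like cluster 2 had 8.46 CPM, the interstitial-like cluster 4 had 15.8 CPM, and the neuron-like cluster had 1 UMI in 66 cells. Thinned to 5000 UMIs, Fst was seen in 47.0% of cells of cluster 8 and 3.34% of cluster 2.

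Wnt4 showed the reverse. It had 396 CPM (390 to 402) in cluster 2, where 85.7% of cells had a UMI, 297 CPM in cluster 4, 286 CPM in cluster 3 and 181 CPM in cluster 6, an unnamed cluster with the epithelial genes Cxcl15 and Mal among its leading genes. In clusters 7 to 11 it lay between 43.7 and 57.2 CPM. The neuron-like cells had a UMI in 25.8% of cells at a median depth of 9749 UMIs and 51.7 CPM (35.6 to 72.7), an interval that covers the levels in clusters 7 to 10. Whether the UMIs in these clusters came from free RNA in the droplets was not tested. Cluster 8 had a UMI in 363 of its 908 cells at a median depth of 23175 UMIs.

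Rspo1 was more restricted than Wnt4. Clusters 2 and 3 held 46.1% and 36.3% of its UMIs, at 34.5 CPM (32.7 to 36.4) and 30.2 CPM (28.4 to 32.0), and the shallow cluster 5, with a median of 2021 UMIs, had 28.1 CPM. The interstitial-like cluster 4, which had as much Wnt4 as cluster 3, had 6.23 CPM (5.26 to 7.34) of Rspo1. Thinned to 5000 UMIs, Rspo1 was seen in 14.9% of cells of cluster 2, 13.7% of cluster 3 and 2.31% of cluster 4. The neuron-like cells had 8 UMIs, whose interval (5.41 to 24.7 CPM) lay below those of clusters 2 and 3, overlapped that of cluster 5 (22.8 to 34.3) and covered the level of cluster 4. Clusters 8 and 9 had 2.6 CPM (1.99 to 3.35) and 1.23 CPM (0.531 to 2.42), below the interval of cluster 4.

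Foxl2 stood out in no cluster of size. It had 2.51 CPM (2.04 to 3.05) in cluster 2, 2.29 CPM (1.72 to 3.00) in cluster 4, 1.61 CPM (1.22 to 2.08) in cluster 3 and 0.477 CPM (0.238 to 0.854) in cluster 8, and 0 of 269 cells of cluster 10 had a UMI. The interval of cluster 8 lay below those of clusters 2, 3 and 4, and those of clusters 2 and 4 overlapped. The neuron-like cells had 1 UMI, whose interval (0.0397 to 8.74 CPM) covers all of these. With so few UMIs, they cannot show whether Foxl2 in any cluster was above the level of free RNA.

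Cells with a UMI of Rspo1 had one of Wnt4 in 84.3% (82.7% to 85.9%), and so did 84.3% of cells with Foxl2 (79.2% to 88.6%), against 54.1% of all cells. Cells with Fst had Wnt4 in 49.2% (47.0% to 51.5%). The cells with Rspo1, Foxl2 and Fst were deeper than the rest, with medians of 14718, 15311 and 15844 UMIs against 9281, which raises such shares. Only 7 cells had a UMI of all 4 genes, 222 had 3 of them and 5735 had none.

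By the rule of likeness, the genes whose mean log2(FPKM + 1) over the 13 groups was nearest to that of a member among 9044 genes were Man1a, Bmp2 and Gab2 for Foxl2 (Pearson r of 0.9945, 0.9906 and 0.9879), Zfp579, Ctsh and Rgs3 for Wnt4 (0.9954, 0.9951 and 0.9939), Sh2d3c, Sh2d4a and Gfra2 for Rspo1 (0.9738, 0.9733 and 0.971), and Fam196b and Elfn1 for Fst (0.9572 and 0.945). These points share the split between E12.5_GC and the cultures. Over the 4 stages the nearest, among genes called in the same comparisons, were Gmppa, Lpcat3 and Fam3a for Foxl2, Pax8, Ifitm7 and Mdk for Wnt4, Pglyrp1, Wdr86 and 2610028E06Rik for Rspo1, and Cox4i2, Vwa5b1 and Cyfip2 for Fst, each with r of at least 0.9978 over 4 means.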

How the data were processed

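The members and the gene lists were chosen with earlier results of these data known. The authors deposited raw read counts per gene for the 4 stages and FPKM values, normalized by them for gene length and library depth, for the cultures and E12.5_GC. Their processing notes name Trim Galore, FastQC, HISAT2, SAMtools, featureCounts and RSEM and the build mm10, and versions are not given in the sources used here. The deposited single-cell table holds UMI counts per cell, from Cell Ranger per the study's methods. The study's results describe a triplicate, but all barcodes share 1 suffix, so the table was used as 1 sample. FPKM columns headed X580 were taken as the AM580 libraries of the same time and number, the only ones they could match. One further table had 10 columns that matched no sample, and it was not used. The germ cell samples were not analysed here.

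Stages were fitted with edgeR 4.0.16 (filterByExpr, TMM, quasi-likelihood F test, 8 libraries in 1 model, 16398 genes). FPKM values were tested with limma 3.58.1 (trend) on log2(FPKM + 1), with 15 libraries of days and E12.5_GC (genes of at least 1 FPKM in 3 libraries) and 16 libraries of treatments (at least 1 FPKM in 2). Calls used a Benjamini-Hochberg adjusted p below 0.05 over all genes tested. Low FPKM values were within 0.1 of whole fragments for 96.9% to 98.5% of values per library, and the fragments so estimated were tested with edgeR as an alternative added after seeing the data. Single cells were clustered with scanpy 1.11.5 and leidenalg 0.10.2 (2000 variable genes without the 4 members, 20 components, resolution 0.5), and a cluster was named for the list with the most detected markers, at least 3, unless its leading genes were of another kind or it was shallow with none of those markers among its top 10 genes. The edgeR test of the stages, the limma tests and the clustering were tried on simulated data. DESeq2 and the test on estimated fragments were not. Named genes were the 4 members in every comparison, at most 4 called genes of each list by size of change, the nearest genes by correlation of group means, and the leading genes of clusters, and a few genes so named are not reported here. Further alternatives were DESeq2 1.42.0, other scalings, no filter, offsets for length and GC, a lane term, a replicate block, a pseudocount of 0.1 and leaving out each library. The precision of stage values is limited by 2 libraries a group and totals of 12694769 to 22259044 counts.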

Additional observations from a re-analysis of the deposited data

Results flagged for a closer look

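For 5 results, the effect of a compound at 48 h differed from its effect at 24 h by the interaction term in limma on log2(FPKM + 1), with both times set against Con of the same time. The effect on Fst at 48 h minus that at 24 h was −0.5257 with Vc, −0.7815 with AM580 and −0.8993 with V580. The value for Vc was not called without Con_48h replicate 2 (adjusted p = 0.056), without Vc_48h replicate 1 (adjusted p = 0.0542) or in 1 model of all 31 libraries (adjusted p = 0.17). The same difference for Wnt4 was 0.5689 with AM580 and 0.59 with V580. Wnt4 passed the filter on low values only through the AM580_48h libraries, and with no filter the adjusted p was 0.0192 and 0.0164 (limma). Wnt4 was at or under 1.04 FPKM in every library behind these values, and Con itself was lower at 48 h than at 24 h. All 5 share the Con libraries.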

How the results depend on the processing

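Each value per gene and comparison was set against its value under each alternative, and every such pair was counted. For the stages, 362 of 384 pairs kept their direction and their side of the threshold. For the days 571 of 588 pairs did so, and for the treatments 1171 of 1216. A result that changed under 1 alternative is counted as kept under the others, so these are not shares of results that held throughout. Counts of members called stayed within 1.5 times in 91 of 96, 144 of 147 and 396 of 418 cases. With 2 or 3 libraries a group, single libraries decided several calls. The cause of the changes below was not tested.

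For the stages, a lane term called 4 members between E13.5 and E12.5. Leaving out 1 library gave 2 to 4 there and 0 (without E12.5 replicate 1) to 3 (without E16.5 replicate 1) between E16.5 and E12.5. Without either E12.5 library, 3814 or 3899 of all genes were called between E16.5 and E12.5 in place of 6160. Replicate numbers were not treated as pairs in the main tests. Same-numbered libraries had correlations of deviations of −0.0403 to 0.0673 in the stages, −0.431 to 0.386 in the days and −0.424 to 0.209 in the treatments. These values cannot decide whether the numbers pair the samples. With 2 libraries a group both numbers give the same value, and no reference for unpaired numbers was computed. With a replicate block, Wnt4 between E13.5 and E12.5 came to 0.28 (adjusted p = 0.0418, edgeR), which made 3 members called there, and the block changed no other call.

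For the days, leaving out 1 library gave 0 to 3 members called from day 8 to day 10, Fst from −0.06779 to 0.09737 in that step and from −0.0902 to 0.04805 from day 4 to day 6. The test on estimated fragments, chosen after seeing the data, gave −0.0006915 for Fst from day 8 to day 10.

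For the treatments, 1 model of all 31 libraries called 0 members between V580_24h and AM580_24h, 0 for the change of the Vc effect between the times and 0 for additivity at 48 h, and a pseudocount of 0.1 and the fragments each called 0 for the last as well. The change of the V580 effect on Rspo1 between the times turned to 0.0198 with a pseudocount of 0.1 and 0.04293 with fragments. Leaving out 1 library gave these ranges for values that were not called. For Rspo1 they were −0.06348 to 0.08397 for Vc_24h against Con_24h, −0.1993 to 0.04707 for AM580_24h against Con_24h, −0.2116 to 0.03484 for V580_24h against AM580_24h, −0.2122 to 0.03554 for Vc_48h against Con_48h and −0.07771 to 0.01007 for V580_48h against AM580_48h. For the change of effects on Rspo1 between the times they were −0.2225 to 0.02529 for Vc, −0.2037 to 0.04402 for AM580 and −0.1492 to 0.09856 for V580, and for additivity −0.2218 to 0.02459 at 24 h and −0.06936 to 0.1784 at 48 h. For Wnt4 they were −0.1404 to 0.02263 for Vc_24h and −0.2608 to 0.09502 for V580_24h against Con_24h, −0.2019 to 0.1539 for V580_24h against Vc_24h and −0.3264 to 0.02946 for additivity at 24 h. Fst between Con_48h and Con_24h ran from −0.174 to 0.01257. Members called ran from 1 to 3 for V580_48h against Con_48h, from 0 to 1 for V580_24h against AM580_24h and for the change of the Vc effect, and from 1 to 2 for AM580_48h against Con_48h, V580_48h against Vc_48h, Con_48h against Con_24h and the changes of the AM580 and V580 effects. Leaving out either AM580_48h library took Wnt4 out of the test. Over all genes, the model of 31 libraries lowered the number called from 1443 to 517 for Vc_24h, 1580 to 818 for AM580_24h, 3086 to 1643 for V580_24h and 1324 to 502 for Vc_48h against Con, from 1570 to 649 and 2046 to 937 for V580 against AM580 at 24 h and 48 h, from 1803 to 894 for V580_24h against Vc_24h, from 309 to 75, 3721 to 2021 and 3612 to 2001 for the changes of the Vc, AM580 and V580 effects, and from 384 to 132 for additivity at 48 h.

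In single cells, 15 of 28 values moved by less than their interval. Cells of at least 1000 genes held Foxl2, Wnt4, Rspo1 and Fst in 2.09%, 66.0%, 16.7% and 15.0%. Thinned cells held them in 0.793%, 55.6%, 8.93% and 8.42%, with 281 CPM of Wnt4, 20.9 of Rspo1 and 39.9 of Fst. At resolution 1.0 the leading cluster had 457 CPM of Wnt4 and 52.1 of Rspo1.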
